A study of Caenorhabditis elegans with 2 samples.

Results

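The regions described here were ELT-3 ChIP-seq regions that lay between genes and away from annotated gene starts in Caenorhabditis elegans embryos. The members were chosen by pooled signal and position: of the first 2000 nuclear regions in the authors' pooled list, ordered by signal, 543 (27.15%) had their summit in no protein-coding gene body and outside every 5′ window, which ran from 1000 bp upstream to 500 bp downstream of a protein-coding gene start. The full pooled list held 12676 nuclear regions. Among the other regions of the first 2000, 951 had their summit in a 5′ window, 410 lay in introns and 96 in exons, both outside those windows. All chromatin came from strain OP75, genotype unc-119(ed3) III; wgIs75, in which wgIs75 is an inserted transgene that expresses ELT-3 tagged with eGFP beside the worm's own elt-3 gene. There was 1 group of 2 biological replicates, each of whole mixed-stage embryos labelled as pooled male and female, and no untreated, untagged or input library was analysed here. The 2 replicates have separate biosamples under 1 donor, and their pooled list cannot tell binding in the epidermis from binding in other cells of the embryo.

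The protein ELT-3 belongs to the GATA family of zinc finger proteins and works in the hypodermis, an epidermal layer that secretes the cuticle. It is known to act in the embryo after ELT-1, the GATA factor that specifies the epidermis, and to switch on genes of the differentiated hypodermis. GATA factors contact the sequence WGATAR, with W standing for adenine or thymine and R for a purine. C. elegans regulatory DNA usually lies close to gene starts, and an intergenic element further away can belong to either flanking gene or to a distant gene, so the nearest gene is given below only as an address.

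The DNA at the summits shows what these regions contain. The summit base with 50 bp on either side is given for the 6 members of highest pooled signal that held WGATAR, leaving out the first autosome, with every WGATAR match on either strand in capitals. The bases are the plus strand of NCBI RefSeq's WBcel235 assembly, which ce11 shares.
IV, nearest start Y37A1A.2, chrIV:13919339-13919439: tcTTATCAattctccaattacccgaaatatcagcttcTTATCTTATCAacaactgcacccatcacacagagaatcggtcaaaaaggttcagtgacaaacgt
II, nearest start B0334.20, chrII:11502072-11502172: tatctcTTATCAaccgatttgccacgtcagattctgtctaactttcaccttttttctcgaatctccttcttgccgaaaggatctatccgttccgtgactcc
III, nearest start gei-1, chrIII:3339765-3339865: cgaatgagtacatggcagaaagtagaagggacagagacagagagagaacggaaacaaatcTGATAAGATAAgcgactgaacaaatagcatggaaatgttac
X, nearest start R03E9.2, chrX:6737657-6737757: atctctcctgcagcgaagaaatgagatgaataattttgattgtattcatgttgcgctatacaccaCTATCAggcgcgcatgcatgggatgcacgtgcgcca
III, nearest start R08D7.7, chrIII:8986980-8987080: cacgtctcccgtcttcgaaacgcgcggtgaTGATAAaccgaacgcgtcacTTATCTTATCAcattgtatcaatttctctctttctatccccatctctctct
IV, nearest start ZK180.5, chrIV:4518272-4518372: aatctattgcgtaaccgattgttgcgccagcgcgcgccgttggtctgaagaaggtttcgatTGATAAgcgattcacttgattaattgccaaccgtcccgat

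The windows near Y37A1A.2 and R08D7.7 each held 3 matches and that near gei-1 held 2. In these 3 windows a pair of matches overlapped in a tandem, and the nearest such pair lay within 20 bp of the summit. The windows near gei-1 and R08D7.7 also carried runs of alternating purines or pyrimidines of the GA-repeat kind.

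The members of highest signal on X looked different. The next 4 windows are the pair of highest signal without WGATAR and, added after their sequences had been seen, 2 further X members that hold the letters GCGCAGGG. Capitals mark GCGCAGGG on either strand, and the second window has none. These letters form part of the motif known as MEX, which is enriched at the sites where the worm's dosage compensation complex is loaded onto the X chromosomes of hermaphrodites.
X, nearest start W02H3.3, chrX:11094143-11094243: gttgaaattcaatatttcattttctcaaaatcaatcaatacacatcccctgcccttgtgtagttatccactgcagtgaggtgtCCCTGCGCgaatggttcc
X, nearest start K02D3.1, chrX:13700824-13700924: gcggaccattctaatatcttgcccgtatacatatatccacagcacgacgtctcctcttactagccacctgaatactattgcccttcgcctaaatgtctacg
X, nearest start F20B6.9, chrX:4209255-4209355: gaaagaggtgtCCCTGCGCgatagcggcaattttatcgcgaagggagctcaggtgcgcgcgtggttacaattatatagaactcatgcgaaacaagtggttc
X, nearest start gtr-1, chrX:806630-806730: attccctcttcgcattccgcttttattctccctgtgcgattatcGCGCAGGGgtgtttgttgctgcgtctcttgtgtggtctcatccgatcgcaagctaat

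WGATAR lay within 50 bp of the summit in 201 of 543 members, or 37.0% (95% exact Clopper-Pearson interval 32.9 to 41.2%, counting error only), beside 31.9% of all 2000 regions. In windows of the same length 500 bp to 1 side of each summit the share was 18.4% (15.2 to 21.9%). The difference of 18.6 percentage points passed the exact McNemar test, 2-sided (adjusted p = 6.162e-11, Benjamini-Hochberg over 6 sequences), with 170 members holding the sequence only at the summit and 69 only in the flank. Over 243430 non-overlapping windows of that length of all sequence that the position rule allows, 20% held WGATAR. The flanks were thus close to the intergenic level, and most members, 342 of 543, had no match at the summit. Of those with matches, 111 held 1, 55 held 2, 29 held 3 and 6 held 4.

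The narrower TGATAA, which lies inside WGATAR and is found in 5 of the 6 WGATAR windows shown, all but that near R03E9.2, occurred at 21.9% of summits and in 6.63% of flanks. That difference also passed the exact McNemar test (adjusted p = 2.095e-13), and 9.14% of all allowed windows held TGATAA. The control WGTAAR, the same letters in another order, went the other way, at 15.1% of summits against 24.9% of flanks (exact McNemar test, adjusted p = 6.825e-05). Base composition moved with these contrasts: median GC content was 41.6% at the summits and 32.7% in the flanks, and its part in the differences was not tested. WGATAR and WGTAAR have the same base composition.

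By position, WGATAR matches formed a broad mound around the summit. In 20 bp bins centred from 60 bp left to 40 bp right of the summit, between 10.1 and 12.3% of members had a match, beside 8.10% at 80 bp to the left and 6.45% at 80 bp to the right. Bins from 200 bp outward did not exceed 7.0%.

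**Figure D1:**
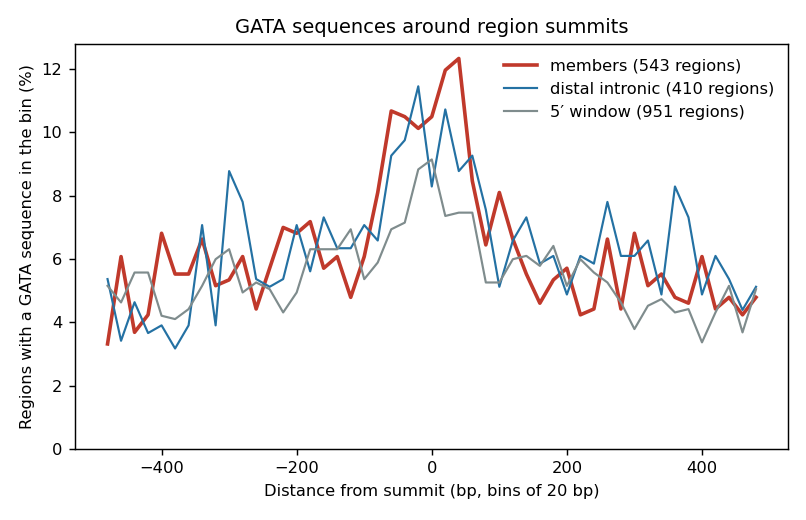
Share of regions with a WGATAR match (y axis, %) in 20 bp bins of distance from the summit (x axis, bp), for 543 members, 410 distal intronic regions and 951 regions in 5′ windows. The members' line stays between 10.1 and 12.3% from 60 bp left to 40 bp right of the summit and is lower further out.

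Members held WGATAR more often than regions in 5′ windows, where the share was 27.7% (24.8 to 30.6%, n = 951). Fisher's exact test, 2-sided, gave an odds ratio of 1.54, with p = 0.002368 when adjusted over 12 sequence-by-class comparisons, and 1.47 with GC content in a logistic model (adjusted p = 0.006866). TGATAA followed the same order, at 21.9% against 14.7% (odds ratio 1.63, adjusted p = 0.002951, Fisher's exact test). The call for WGATAR was lost when 5′ windows began 2000 bp upstream (difference 7.14 points, Fisher's exact test, adjusted p = 0.1104) and when matches were counted within 25 bp of the summit (4.72 points, adjusted p = 0.1214). Distal intronic regions, which differ from the members in lying inside a gene, held WGATAR at 32.9% (28.4 to 37.7%, n = 410). The difference of 4.09 points from the members did not pass Fisher's exact test (adjusted p = 0.3277), and its sign turned to -4.42 points among the first 1000 regions, -4.81 in the reproducible list and -0.864 with replicate 1 alone.

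Signal and WGATAR were compared only as a description, since signal chose the members. The share was 45.2% in the 84 members of ranks 1 to 250, 37.7% in 69 members of ranks 251 to 500, 35.0% in 123 of ranks 501 to 1000, 33.1% in 139 of ranks 1001 to 1500 and 37.5% in 128 of ranks 1501 to 2000. The exact intervals of these bands overlapped. TGATAA stood at 33.3% in the first band and at 14.4 to 23.2% in the others.

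Over all 6-mers, with reverse complements merged, 172 were more frequent at the summits than in the flanks (8.27%) and 123 were less frequent (5.91%) by exact McNemar tests adjusted over all 6-mers (339 and 202 at an unadjusted p under 0.05). The leading 6-mer was GAGAGA, at 30.02% of summits and 4.79% of flanks (exact test, adjusted p = 6.303e-26), against 5.34% of all allowed windows. Its neighbours AGAGAG and AAGAGA, which overlap it, followed at 25.8% and 26.5% of summits. CGTCTC stood at 17.3% of summits and 2.39% of flanks (exact test, adjusted p = 1.158e-14), with 2.51% of all allowed windows. The first GATA-containing 6-mer was CTTATC, the reverse complement of GATAAG, at 86 summits and 10 flanks (exact test, adjusted p = 2.076e-14). Less frequent 6-mers were AT-rich, led by AAAAAT at 127 summits and 313 flanks (exact test, adjusted p = 6.536e-26).

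GAGAGA was found at 163 summits, beside 201 with WGATAR. This 6-mer was also more frequent in members than in 5′ window regions, where it stood at 23.8% (odds ratio 1.38, Fisher's exact test, adjusted p = 0.03384), while 26.3% of distal intronic regions held it (adjusted p = 0.3277). GAGAGA was chosen with its frequency at these summits known, which can favour the members, so this comparison is not independent support. CGTCTC did not pass against either class. Nor did ACGCAG, which stood at 13.4% of members, 14.5% of 5′ window regions and 12.4% of distal intronic regions. Of the 94 members with CGTCTC, 55 also held the GA repeat and 48 also held ACGCAG, so the 3 sequences often shared a window. WGATAR was found in 31.8% of the 220 members with any of the 3, and in 40.6% of the 323 members with none of them. A further count is 192 members, 35.4%, that held neither WGATAR nor any of those 3.

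**Figure D2:**
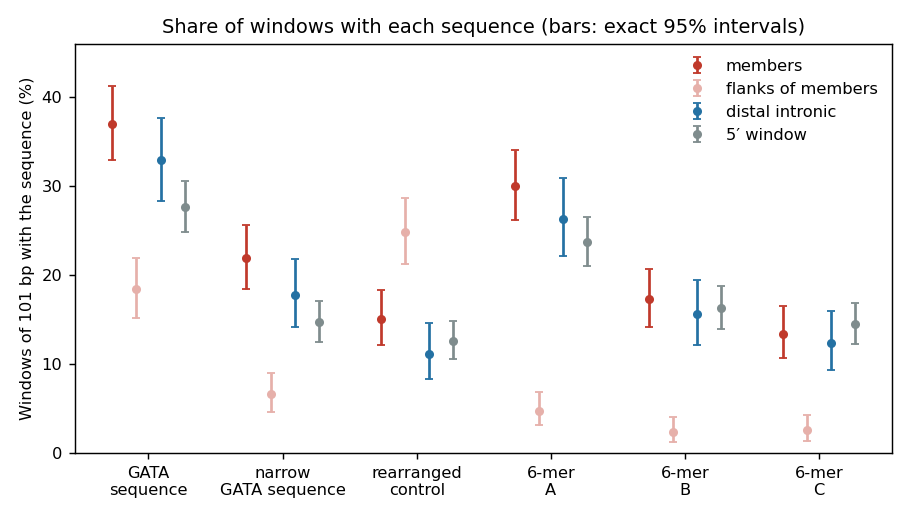
Share of windows reaching 50 bp either side of the summit (y axis, %) with WGATAR (GATA sequence), TGATAA (narrow GATA sequence), WGTAAR (rearranged control), GAGAGA (6-mer A), CGTCTC (6-mer B) and ACGCAG (6-mer C) in members, their flanks, distal intronic and 5′ window regions, with exact 95% intervals. Members lie above their flanks for all but the control, and their intervals overlap those of the distal intronic regions for each sequence.

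The 12 members of highest signal included 7 on X, of which 6 held no WGATAR, and 5 on autosomes, of which 4 held it. The member nearest W02H3.3 had a pooled signal of 138.9, with 90.3 in replicate 1 and 52.4 in replicate 2. The member nearest Y37A1A.2, on IV, had 137.2 pooled, 99.7 in replicate 1 and 35.0 in replicate 2. The member between adm-2, a disintegrin metalloprotease gene, and K02D3.1 had 134.0 pooled, 67.0 in replicate 1 and 67.2 in replicate 2. All 3 stood far above the members' medians of 35.0 pooled, 22 in replicate 1 and 14.9 in replicate 2, each list having its own scale.

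The next 4 were again on X and had no WGATAR at the summit. The member between ZK899.6 and gap-2, a Ras GTPase-activating protein gene, had a pooled signal of 124.4, with 72.1 and 53.9 in replicates 1 and 2. The member between F20B6.9 and hpk-1, which encodes a homeodomain-interacting protein kinase, had 121.7, with 64.3 and 56.9. The member between gtr-1 and F25E2.2 had 121.4, with 72.6 and 47.9. The member between F22H10.2 and F22H10.11 had 118.0, with 72.3 and 45.5. These 4 were high in both replicates.

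The other 5 of the 12 lay on II, III and X. The member between B0334.20 and npr-41, a neuropeptide receptor gene, had a pooled signal of 111.0, with 56.9 and 52.4 in replicates 1 and 2. The member upstream of gei-1 had 104.9, with 63.5 and 40.5. The member between R03E9.2 and mdl-1, the gene of the worm's MAD-like partner of MXL-1, had 103.1, with 65.2 and 37.8. Those 3 held WGATAR, and so did the member between pde-2, a phosphodiesterase gene, and R08D7.7, with 96.2 pooled, 44.9 in replicate 1 and 49.5 in replicate 2. The last, between Y22D7AR.6 and Y22D7AR.7, held none and had 98.3, with 69.9 and 29.5.

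X members took 7 of the 10 highest places, of which 1 held WGATAR, and all 3 autosomal members among those 10 held it. Among the 50 highest, 18 were on X, 3 of them with WGATAR, and 32 were on autosomes, 15 of them with it. Over all members, 29.6% of 125 X members (37 members) and 39.2% of 418 autosomal members (164 members) held WGATAR. In allowed windows at large the shares were 20.9% on X and 19.8% on the autosomes. TGATAA differed more, at 10.4% of X members and 25.4% of autosomal members. In allowed windows TGATAA stood at 9.65% on X and 8.98% on the autosomes, so the X members were near that level. The contrast between X and autosomal members was noticed in these data and was given no test.

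GCGCAGGG lay within 50 bp of the summit in 4 of 125 X members (3.20%, exact interval 0.879 to 7.99%) and in 0 of 418 autosomal members, where the exact interval reached 0.879%. The 4 had ranks 4, 11, 12 and 201. Within 100 bp the counts were 6 on X and 0 on autosomes, and within 190 bp, the usual reach of a region, 9 and 1. In allowed windows at large the letters stood at 0.0557% on X and 0.0266% on autosomes. The fourth member lay 4905 bp upstream of xol-1, the X-linked switch gene that directs male development and keeps dosage compensation off. It held GCGCAGGG at 2 places, with a pooled signal of 62.4, 48.0 in replicate 1 and no matching summit in replicate 2. Such letters were also found within 50 bp in 2 of 85 distal intronic and 1 of 162 5′ window regions on X, against 0 of 325 and 0 of 789 on autosomes. Within 100 bp these counts were 3 distal intronic and 4 5′ window regions on X, against 2 and 0 on autosomes. The letters were chosen after the sequences were read, no test was made, and a match is not a binding site.

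The members were unevenly spread over the 6 nuclear chromosomes. The position rule allows 25.03 Mb, 24.96% of the nuclear genome, and members numbered 21.7 per Mb of it. Chromosome I had the highest density, 40.5 per Mb, followed by III at 27.6, II at 23.5, X at 21.9, IV at 16.2 and V at 12.1. X therefore held 23.02% of members on 22.8% of the allowed sequence, while it held 36.0% of the 50 highest. Chromosome V held 62 members on 20.6% of the allowed sequence and 2 of the 50 highest. On the autosomes WGATAR shares ran opposite to density, with 50% of members on V, 44.4% on IV, 42.9% on II, 36.4% on III and 28.9% on I, and X, at 29.6%, stood apart from that order. Both replicates contributed to the list, so these shares have no spread over samples.

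**Figure D3:**
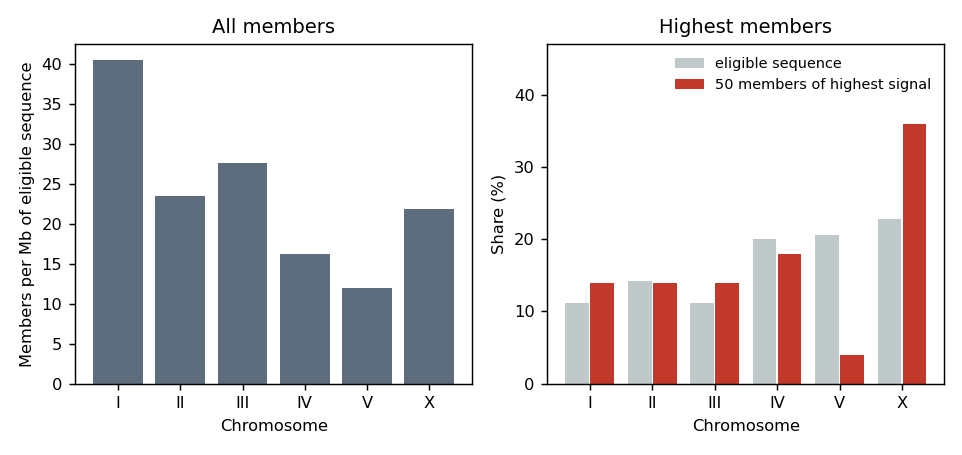
Left, members per Mb of allowed (eligible) sequence on each chromosome. Right, each chromosome's share (%) of the allowed sequence and of the 50 members of highest signal; X holds 36.0% of the latter on 22.8% of the sequence, and V falls below its share.

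Each member was sought in the list of each replicate, taking a summit within 100 bp as a match. These lists held 19139 regions in replicate 1 and 26357 in replicate 2, so a match could be of low rank. The member nearest wnk-1, for example, was matched at rank 18815 in replicate 1. Replicate 1 had a match for 513 members (94.5%) and replicate 2 for 479 (88.2%). Both had a match for 452, or 83.2% (exact interval 79.8 to 86.3%), beside 82.2% of all 2000 regions, so members were matched about as often as the rest. Of the others, 61 were matched in replicate 1 alone, 27 in replicate 2 alone and 3 in neither. The authors' list of reproducible regions included 187 members. The pooled list was made from both replicates, so a match is a description.

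Over the 452 members matched in both, signal ran from 8.43 through a median of 22 to 99.7 in replicate 1, and from 4.57 through 14.9 to 67.2 in replicate 2. The order of members was only loosely shared. Across these 452 members, which share libraries and were all selected on the pooled signal, the Spearman rank correlation was 0.375 and Pearson's r on log10 signal 0.426. Of all 2000 regions, 1643 were matched in both, and over these the values were 0.318 and 0.384, so the loose order was not particular to the members. In each replicate's own first 2000 nuclear regions, 219 of the 543 members had a match in both, beside 765 of all 2000 pooled regions. WGATAR was held by 39.2% of the members matched in both replicates and by 26.4% of the other 91, without a test.

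**Figure D4:**
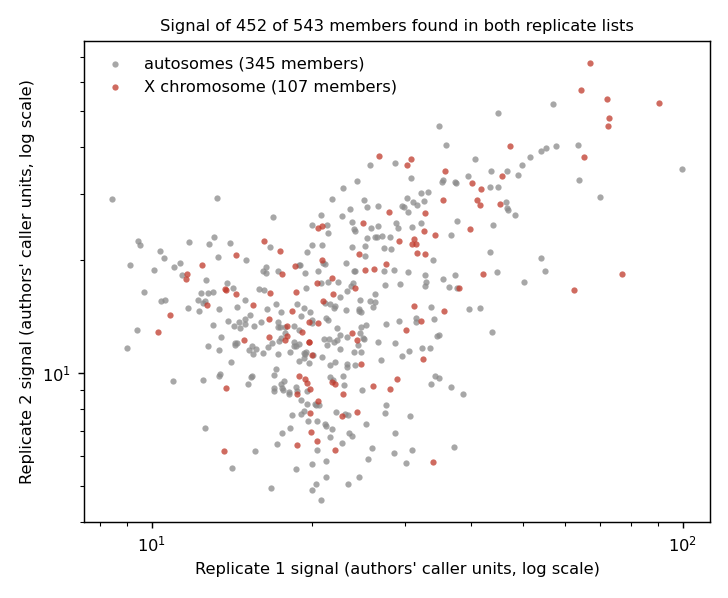
Replicate 1 signal (x axis, log scale) against replicate 2 signal (y axis, log scale), both in the authors' caller units, for the 452 members matched in both lists; each point is a member, with X members in red. The points form a broad cloud whose upper right corner holds several X members.

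Most members lay a few kilobases from the nearest protein-coding start. The median distance was 2411 bp, with quartiles of 1470 and 3872 bp and a range of 517 to 35458 bp, and allowed positions had a median of 2764 bp. More than 5000 bp separated 15.5% of members and 21.9% of allowed positions from a start, and more than 10000 bp 2.03% and 4.25%. Members were upstream of that nearest gene in 396 cases (72.9%), as was 66.7% of the allowed sequence. Between divergent genes lay 32.6% of members on 29.9% of the allowed sequence, between tandem genes 54.9% on 53.4% and between convergent genes 11.97% on 16.4%. WGATAR was held by 44.6% of 177 members between divergent genes, 35.2% of 298 between tandem genes and 26.2% of 65 between convergent genes. These shares are a description of 1 pooled list.

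The members fell into 474 intergenic stretches, 57 of which held more than 1 member and together took 126 members. The stretch of 20938 bp between got-2.2 and W05H9.4 on X held 4 members within 4453 bp, 3 with WGATAR and with pooled signals of 31.7 to 53.4. The stretch of 13137 bp between din-1, which encodes a corepressor of the nuclear receptor DAF-12, and ghi-1 on II also held 4, 1 of them with WGATAR, with signals of 30.3 to 42.5. Of the 8 stretches with 3 members, that between C30E1.4 and F52G3.8 on X reached the highest signal, 77.4. Beyond these named by rule, the stretch between the patched-related gene ptc-3 and Y110A2AL.5 was picked after its values were seen, because all 3 of its members held WGATAR.

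The genes nearest to members numbered 496 and were counted in 12 lists, each beside the share of allowed sequence whose nearest start belongs to the list. These lists were drawn up with earlier results known, members are few in most of them, and no test was made. Nuclear hormone receptors, ligand-regulated or orphan transcription factors of a large worm family, were nearest to 21 members (3.87%) on 1.88% of the allowed sequence. The 21 members lay at 19 of 273 receptor genes, and 10 held WGATAR. The 2 members nearest nhr-45 overlapped, with summits 208 bp apart. The highest was 1475 bp upstream of nhr-14, with a pooled signal of 72.9, 40.2 in replicate 1 and 32.2 in replicate 2. That upstream of nhr-88 had 69.0, with 43.9 and 24.9, and that upstream of nhr-105 had 65.6, with 30.8 and 33.1. The nhr-105 window held WGATAR and the other 2 did not.

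Hypodermal transcription factor genes were nearest to 5 members (0.921%) on 0.289% of the allowed sequence, and 1 of the 5 held WGATAR. It lay 2169 bp upstream of bed-3, a zinc finger gene needed in the molting cycle, with a pooled signal of 42.8, 20.1 in replicate 1 and 21.99 in replicate 2. The member upstream of blmp-1, the worm's BLIMP1 homologue, had 34.7, no match in replicate 1 and 15.7 in replicate 2. The member 1627 bp upstream of nhr-25, an epidermal nuclear receptor gene, had 32.1, 22.5 in replicate 1 and no match in replicate 2. The GATA factor list, which overlaps this list, had 2 members, 7325 bp upstream of egl-27 with 27.9 and 5705 bp upstream of elt-1 with 27.1. Both lay near the lowest signal of the members and held no WGATAR, and the member near elt-1 had no match in replicate 2. No member, 0 of 543, had elt-3 itself as its nearest start.

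Hedgehog-related and patched-related genes were nearest to 6 members (1.11%) on 0.456% of the allowed sequence, 3 with WGATAR. The highest was 3210 bp downstream of the start of grd-4, a hedgehog-related gene of the groundhog type. It had a pooled signal of 39.3, 26.1 in replicate 1 and 9.25 in replicate 2. The higher of 2 members nearest ptc-3 had 36.6, with 19.5 and 16.8, and the member near ptr-25 had 36.3, with 27.5 and 7.82. These levels were near the members' median of 35.0. Wnt ligands and receptors had 0 members on 0.145% of the allowed sequence.

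Genes of the cuticle had few members. Cuticle collagens were nearest to 4 (0.737%) on 0.706% of the allowed sequence, from a list of 176 genes. The member near col-181 had a pooled signal of 42.5, 25.4 in replicate 1 and no match in replicate 2, and a structural RNA gene lay within 200 bp of it. The member near sqt-3, a collagen that shapes the body, had 39.3, no match in replicate 1 and 20.1 in replicate 2, and that near col-61 had 33.1, with 17.2 and 15.3. Apical extracellular matrix genes also had 4 (0.737%) on 0.432%. The member upstream of cut-2, a cuticlin gene, had 52.8, with 26.3 and 23.01, and that upstream of dex-1, a matrix protein gene, had 43.1, with 24.7 and 15.7 and 3 WGATAR matches. The member upstream of noah-1, a zona pellucida domain protein of the embryonic sheath, had 35.1, with 19.1 and 14.2.

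The remaining lists, of genes of other tissues and of a class of regulators, were mostly below their share of allowed sequence. Chemoreceptor genes, which act in sensory neurons, were nearest to 9 members (1.66%) on 5.55% of it, led by str-144 with a pooled signal of 74.2, srlf-26 with 73.3 and srd-43 with 57.8. Neuropeptide and insulin-like genes were nearest to 3 (0.552%) on 1.52%: the member near ins-13 had 77.0, that near nlp-40 had 44.0 and that near flp-19 had 34.4. Homeobox and helix-loop-helix regulators were nearest to 2 (0.368%) on 1.52%, at hlh-2 with 34.1 and lin-32, a proneural gene, with 32.9. A structural RNA gene lay within 200 bp of the members near srd-43, ins-13 and lin-32, and the summit near ins-13 was inside an snRNA gene. Intestinal genes had 0 on 0.359%, and muscle genes had 1 on 0.110%, at deb-1, which encodes vinculin, with 29.2.

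**Figure D5:**
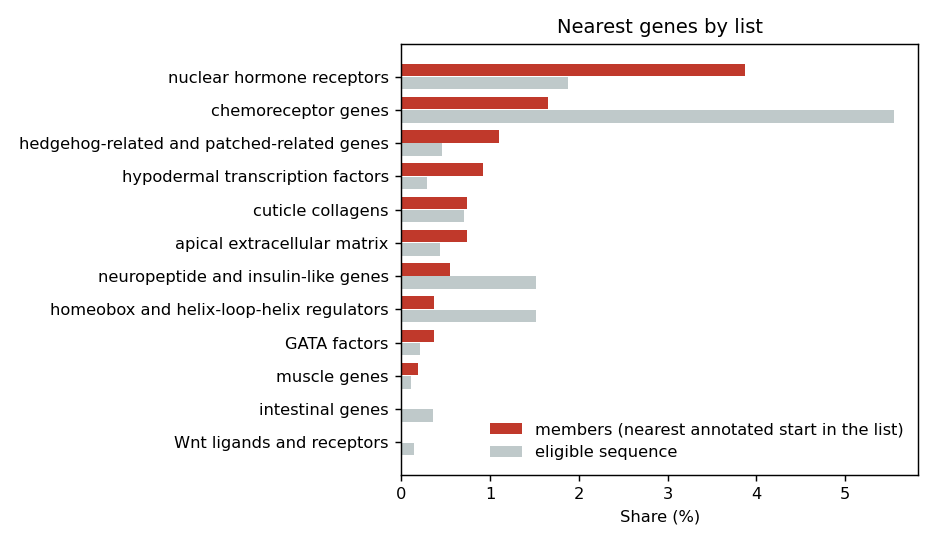
For each of 12 gene lists, the share (%) of the 543 members whose nearest protein-coding start belongs to the list and the share (%) of allowed (eligible) sequence nearest to such a start. Nuclear hormone receptors stand at 3.87% of members on 1.88% of the sequence and chemoreceptor genes at 1.66% on 5.55%.

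Lying outside protein-coding genes does not mean outside every gene. In 58 members (10.7%) the summit was inside a non-coding gene, 43 of them in genes annotated as ncRNA and 11 in tRNA genes. The same share was not counted for the other regions or the allowed sequence, so these counts have no level to be set against. A structural RNA gene (tRNA, snRNA, snoRNA or rRNA) lay within 200 bp of the summit in 46 members, or 8.47% (exact interval 6.27 to 11.1%), beside 7.2% of all 2000 regions. A tRNA gene was within reach of 30 members, a snoRNA gene of 14 and an snRNA gene of 3. Against 5.05% of 5′ window regions the share was higher (odds ratio 1.74 and adjusted p = 0.04258 by Fisher's exact test, 4 comparisons made), and against 11.9% of distal intronic regions it did not pass (adjusted p = 0.1331). The call was lost with a reach of 500 bp (difference 2.61 points, exact test, adjusted p = 0.1331), among the first 1000 regions (4.31 points, 0.08497), in the reproducible list (5.45 points, 0.1482) and with 5′ windows from 2000 bp upstream (3.06 points, 0.2228). WGATAR was held by 4 of these 46 members (8.70%) and by 39.6% of the other 497, and the first set's median GC content was 49.5% beside 41.6%.

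Repeated sequence, at least 50% of whose 31-mers occur elsewhere in the genome, was found at 7 summits, 1.29% (exact interval 0.520 to 2.64%), beside 1.55% of all 2000 regions. It stood at 1.26% of 5′ window regions and 2.93% of distal intronic regions, and neither comparison passed Fisher's exact test (adjusted p = 1.0 and 0.1331). With the rule applied to replicate 2 alone, the difference from 5′ windows was 1.72 points and passed (exact test, adjusted p = 0.006283).

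The signal limit cut through closely spaced values. The last member inside, 7632 bp upstream of F58H1.5 on V, had rank 1998 and a pooled signal of 26.93. The first region outside that met the position rule, near T26H10.2 on V, had rank 2001 and 26.91. Of the 543 members, 537 were 380 bp wide. The 6 narrower regions, the narrowest of 108 bp, had ranks 7, 10, 11, 17, 38 and 50, so narrow regions were found among members of high signal.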

How the data were processed

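ChIP-seq of eGFP-tagged ELT-3 in embryos of strain OP75 was read from region lists on ce11, per the file headers and listings: 1 list for each of 2 replicates, made from its alignments and a control, 1 pooled list and 1 list of reproducible regions. Neither the aligner, the caller and its thresholds nor the read depth is given in the sources used here. Each region carries a deposited signal score on a scale of the authors' own, used here to rank and describe regions within a list. Intervals cover counting error over regions, not the spread between animals.

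From these lists, nuclear regions were ranked by score and the first 2000 assigned to classes with Ensembl release 115 genes on WBcel235, whose chromosomes match ce11 in length. Sequences were searched on both strands within 50 bp of the summit. The flank was an equal window 500 bp to the left for odd ranks and to the right for even ranks. Tests were exact McNemar tests (summit against flank) and Fisher's exact tests (between classes), 2-sided, with Benjamini-Hochberg adjustment and a threshold of 0.05, in Python 3.11.15 with scipy 1.17.1 and statsmodels 0.14.6. The 6-mer step was tested on simulated data, with 6-mers planted in flank windows on 1 side of the summits and compared with the other side. Both sides were flanks, so the simulation cannot show how the step responds to the GC difference between summits and flanks. Each region is treated as independent, and members that share a stretch are not wholly so. Some of those members overlap one another. The members, gene lists and sequences were chosen with earlier results of these data known. Named genes are those nearest the 12 highest members and up to 3 per list, the stretches with most members, and regions at the signal limit. The rule was repeated with other windows, rank limits, lists, distances and each replicate alone. The ce10 lists were not used.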

Additional observations from a re-analysis of the deposited data

How the results depend on the processing

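The summit-over-flank difference for WGATAR was lost or reversed under 1 alternative only, the control letters WGTAAR in its place (-9.76 points; 2.48 against 5′ windows). Over all alternatives to the 12 results, 86 were counted as unchanged, 16 moved, 7 lost a call, 1 gained a call and 5 reversed. Those 86 kept their sign and side of the threshold or, for counts, stayed nearer the main count than those that moved. Nearer was not always close: with replicate 1 alone, 117 6-mers were more frequent, beside 172 in the main result. Among those 86, differences from introns that did not pass still varied. WGATAR was down to 1.55 points, within 25 bp of the summit, structural RNA genes stood at -0.835 points and repeats at -0.152. With GC content in a logistic model, WGATAR against introns had a log odds ratio of 0.138, which also did not pass. Causes were not tested. With 5′ windows from 2000 bp, members numbered 358, 6-mer counts were 84 more and 71 less frequent, WGATAR against 5′ windows was 7.14 points and structural RNA genes 3.06. In the first 1000 regions there were 276 members, 100 more frequent 6-mers, WGATAR at -4.42 points against introns, structural RNA genes at 4.31 against 5′ windows and 90.9% of members in both replicates. In the reproducible list these were 187, 55 (62 less frequent), -4.81, 5.45 and 94.1%, with repeats at -0.909 points against 5′ windows. Applying the rule to 1 replicate at a time, WGATAR against introns ran from -0.864 to 2.78 points, less frequent 6-mers from 81 to 125, and repeats against 5′ windows from 0.875 to 1.72 (without replicate 1, p = 0.006283 by Fisher's exact test after adjustment). Within 25 bp of the summit, WGATAR against 5′ windows was 4.72 points and 52 and 54 6-mers were more and less frequent. Structural RNA genes within 500 bp gave 2.61 points. Summit matching within 50 bp put 61.7% of members in both replicates, and within 200 bp 93.4%. GCGCAGGG, a sequence and comparison chosen after seeing the data, was at 4 X members in the list of each replicate alone. Read depth is unknown, so absence from a list sets no limit on binding.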
